A study of Homo sapiens with 6 samples.

Results

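The peaks compared here are all CTCF peaks on chromosomes 1 to 22 of clone D3 and of wild-type HCT-116 cells, an established line grown from a human colorectal carcinoma. The D3 list held 56103 of these peaks and the wild-type (WT) list 37735, together 93838 of the 136014 peaks in the 3 CTCF lists of the series. A D3 peak and a WT peak were taken as partners if they shared 1 bp or more. Binding was mapped by chromatin immunoprecipitation and paired-end sequencing in cells that received no treatment. D3 is 1 clone, its genotype is labelled as a CTCF mutation, and the labels do not say where the mutation lies. The title given to the series names a distal binding site and the WNT-dependent gating of MYC. With 1 CTCF library on either side, nothing below has a replicate check and no test was run. The libraries made without antibody were not analysed here. The read depth is unknown, and differences between the clone and its parent line cannot be told apart from differences between libraries.

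CTCF is a DNA-binding protein with a row of zinc fingers that recognises a long GC-rich motif. Bound CTCF stops the cohesin ring as it extrudes chromatin loops, so that its sites mark the anchors of loops and the borders of topological domains. It also acts as an insulator between enhancers and promoters, and many promoters carry a CTCF site close to the gene start.

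Promoters of 3 genes show the sequence before starts that peaks cover, 2 of them reached by a D3 peak with no WT partner and 1 reached in both lists. NF2 encodes the tumour suppressor merlin, EP300 a histone acetyltransferase, and CTCF the immunoprecipitated protein itself. The sequences are the 250 bases before the start in RefSeq on GRCh38.p14, written 5′ to 3′ on the strand of the gene. Capitals mark CCCTC or its reverse complement GAGGG. These letters were searched as a short string and were not taken as CTCF sites. NF2 has more than 1 entry in the table and the entry listed first is shown. The windows are chr22:29603383-29603632 for NF2, chr22:41092342-41092591 for EP300 and chr16:67562276-67562525 for CTCF, all on the plus strand. The peak coordinates in the text below are hg19 and were not converted. Counted from the hg19 start, the D3 peaks reach 158 bases upstream at NF2, 194 at EP300 and 226 at CTCF, so a window of 250 bases before that start is covered only in part. The printed windows end at the GRCh38.p14 start, which may be another base, so the peaks were not placed on the printed letters.
NF2: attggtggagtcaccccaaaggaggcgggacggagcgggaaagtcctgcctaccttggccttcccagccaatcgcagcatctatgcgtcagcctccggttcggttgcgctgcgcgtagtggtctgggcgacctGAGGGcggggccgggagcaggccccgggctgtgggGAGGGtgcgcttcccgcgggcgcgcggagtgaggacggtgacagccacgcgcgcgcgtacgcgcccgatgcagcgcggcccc
EP300: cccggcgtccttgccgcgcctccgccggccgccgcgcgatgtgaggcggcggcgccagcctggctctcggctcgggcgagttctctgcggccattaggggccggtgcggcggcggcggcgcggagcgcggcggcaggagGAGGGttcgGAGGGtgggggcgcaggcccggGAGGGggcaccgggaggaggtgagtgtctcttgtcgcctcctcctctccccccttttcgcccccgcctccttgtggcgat
CTCF: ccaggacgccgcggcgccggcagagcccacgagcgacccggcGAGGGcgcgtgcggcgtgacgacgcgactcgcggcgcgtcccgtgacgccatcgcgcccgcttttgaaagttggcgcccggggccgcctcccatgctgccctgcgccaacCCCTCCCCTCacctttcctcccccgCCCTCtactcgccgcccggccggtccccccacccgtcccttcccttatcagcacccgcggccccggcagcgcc
The G and C content of these windows was 71.6%, 76.8% and 76.8%, above the upper quartile of 68% over all 35116 promoters (median 58%). Matches were not set beside promoters of like G and C content. They hold 2, 3 and 4 matches to CCCTC on either strand. Of all 35116 promoters in the RefSeq table, 66.6% hold at least 1 match, so the letters are common in such windows. A longer CTCF core motif was also searched, and it does not contain the marked letters. This longer core occurs in 0.0456% of the promoters and CCACTAG in 1.86%, both strands searched, and neither lies in the 3 windows. These matches describe the letters only.

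In the full lists, of which D3 is the longer one, nearly all WT peaks had a partner in D3 and a larger share of the D3 peaks had none in WT. In WT, 1547 of 37735 peaks (4.10%, exact 95% interval 3.90 to 4.30%) lacked a D3 peak. In D3, 20422 of 56103 peaks (36.4%, interval 36 to 36.8%) lacked a WT peak. These shares depended on the lengths of the lists. With the D3 list shortened to its 37735 strongest peaks, the length of the WT list, 13.1% of the WT peaks (4942) and 14.5% of the D3 peaks (5459) had no partner. The unpartnered D3 peaks made up 11.6 Mb of the 54.1 Mb that the D3 list covers, or 21.4%. The unpartnered WT peaks made up 0.755 Mb of 28.0 Mb, or 2.69%. D3 peaks thus covered 90.5% of the bases in WT peaks, and WT peaks covered 46.9% of the bases in D3 peaks. Most partners were single. There were 526 D3 peaks with 2 WT partners and 10 with 3, against 39 WT peaks with 2 D3 partners. The widest D3 peak, chr17:45918169-45926149, was 7981 bp long and spanned 3 WT peaks.

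Peaks without a partner were weak within their own list. Strength was taken as the authors' −log10 q, ranked from the weakest (percentile 0) to the strongest (percentile 100) of each list. The median percentile was 20.8 for D3 peaks without a WT peak and 68.0 for those with one. It was 6.21 for WT peaks without a D3 peak and 52.0 for those with one. In the weakest D3 decile 91.5% had no WT partner. The share fell through 34.9% in the fifth decile to 0.178% (10 of 5610 peaks) in the ninth. In the strongest decile it was 0 of 5610, which allows up to 0.0657%. In WT the share was 27.3% in the weakest decile, 8.85% in the next and 2.91% in the one after. Of the 18867 WT peaks above the median only 11 lacked a D3 peak, and the strongest decile held 0 of 3773, which allows up to 0.0977%. The weakest 2 deciles held 88.2% of all WT peaks without a D3 peak and 48.2% of all D3 peaks without a WT peak. Percentiles of lists of unequal length are not comparable between D3 and WT. At equal length the median percentiles without a partner were 14.2 in D3 and 11.97 in WT.

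**Figure D1:**
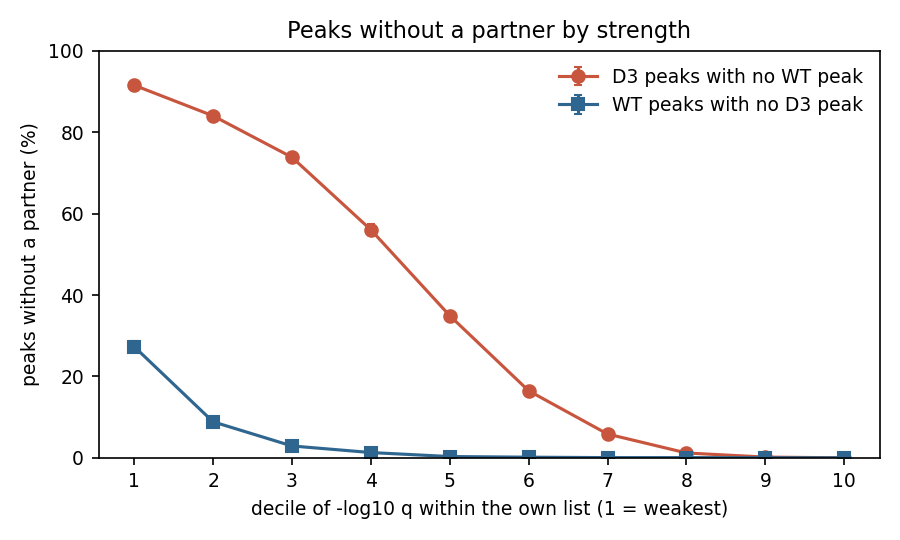
Share of peaks without a partner (percent, y axis) in each decile of the own list by −log10 q (x axis, 1 is the weakest), for D3 (circles) and WT (squares), with exact 95% intervals that are mostly smaller than the symbols. D3 falls from 91.5% to 0 over the whole range, and WT falls from 27.3% to under 3% by the decile numbered 3.

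The strongest D3 peaks without a WT peak within 1 kb were spread over many chromosomes and measured 579 to 1529 bp. The first was chr10:103048088-103048666, 579 bp wide with an authors' fold enrichment of 10.7, at percentile 89.9 of the D3 list. It lay 1.09 kb from the nearest WT peak, just outside the limit of 1 kb. The next, chr7:144423577-144424633, was 1057 bp wide, had a fold of 14.5, stood at percentile 89.6 and lay 11.1 kb from a WT peak. The most isolated of the first 3 was chr3:136936226-136937165, at percentile 86.3 and 95.3 kb from any WT peak. The sixth, chr17:42658979-42659787, stood at percentile 84.1, 40.7 kb from a WT peak. The tenth, chr17:63793564-63794622, lay 236 kb from AXIN2, a negative regulator and target of WNT signalling, at percentile 80.0. Beside these, the 5 strongest peaks of each list all had a partner.

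The strongest WT peaks without a D3 peak within 1 kb were ranked in the shorter WT list, so their percentiles are not comparable with those of D3. Counted from the strongest peak, the first of them held place 6439 in the WT list. The first such D3 peak held place 5658 in the D3 list. The first was chr18:78015600-78016184, 585 bp wide with a fold of 8.36, at percentile 82.9 of the WT list and 9.39 kb from a D3 peak. It was followed by chr20:62406382-62407022, with a fold of 7.88, at percentile 79.3. The next, chr8:128226838-128227809, was 972 bp wide with a fold of 7.15, and stood at percentile 74.9 and 5.53 kb from a D3 peak. This site lies 521 kb before MYC, near the long noncoding RNA gene CCAT1. Then followed chr10:99051862-99052291 at percentile 64.0 and chr11:63933023-63933390, also at percentile 64.0. The tenth, chr10:134036520-134037038, stood at percentile 50.4. Distances to the other list depend on how dense that list is, and they are not given at equal list length. Median spacing was 11.6 kb over all D3 peaks and 15.4 kb over all WT peaks. The median gap from an unpartnered WT peak to the nearest D3 peak was 11.4 kb, and 46.5% lay within 10 kb. From an unpartnered D3 peak to the nearest WT peak the median was 21.4 kb, and 29.7% lay within 10 kb. Only 92 WT and 96 D3 peaks without a partner came within 1 kb of the other list. The farthest unpartnered peak was chr21:21815652-21816614 in D3, 1943 kb from any WT peak.

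Unpartnered peaks were narrow in both lists. The median width was 493 bp for D3 peaks without and 1083 bp for D3 peaks with a WT partner. It was 344 bp for WT peaks without and 655 bp for WT peaks with a D3 partner. Among D3 peaks under 300 bp, 93.3% (2872 of 3077) had no WT partner, against 2.26% of the 2914 that were 2000 bp or wider. Among WT peaks under 300 bp, 20.2% (567 of 2809) had no D3 partner. None of the 909 WT peaks of 2000 bp or more lacked one, which allows up to 0.405%. Width rose with strength (in partnered D3 peaks from a median of 473 bp in the weakest to 1336 bp in the strongest decile), so the width classes were also set beside each other within the weakest decile. There the unpartnered share in D3 was 94.3% under 300 bp, 92.6% from 300 to 500 bp, 88.5% from 500 to 1000 bp and 83.3% from 1000 to 2000 bp, and 3 of 5 wider peaks had no partner. The unpartnered share in WT was 35.2% under 300 bp, 20.4% from 300 to 500 bp, 27.3% from 500 to 1000 bp and 35.9% from 1000 to 2000 bp. Among weak peaks the share thus fell with width in D3 and showed no such order in WT. The widest WT peak without a partner, chr16:89410469-89412452, was 1984 bp long and stood at percentile 2.42. The widest D3 peak without one was chr22:18766210-18769979, 3770 bp long at percentile 15.3.

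Spacing within a list differed less. The median gap to the nearest peak of the same list was 13.3 kb for D3 peaks without and 10.7 kb for D3 peaks with a WT partner. In WT it was 15.9 kb without and 15.3 kb with a D3 partner. No gap within a list was below 981 bp in D3 or 993 bp in WT. Unpartnered peaks had unpartnered neighbours in a somewhat larger share of cases than partnered peaks had. The nearest D3 peak was itself unpartnered for 39.5% of the unpartnered and 34.3% of the partnered D3 peaks. In WT these shares were 8.34% and 3.70%. Counted along the chromosome, unpartnered D3 peaks formed 12423 runs, 373 of them of 5 peaks or more. The longest run was 16 D3 peaks in chr7:56445732-64086099, over 7640 kb. The next was 13 peaks in chr4:61625351-63315540. Of 1413 WT runs, 1301 were single peaks and none was longer than 4. Run length moves with the share of unpartnered peaks, 36.4% in D3 and 4.10% in WT, so runs are not compared between the lists. Runs of 4 occurred in chr17:70562346-70640344 and chr10:128545394-128863654, among others.

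**Figure D2:**
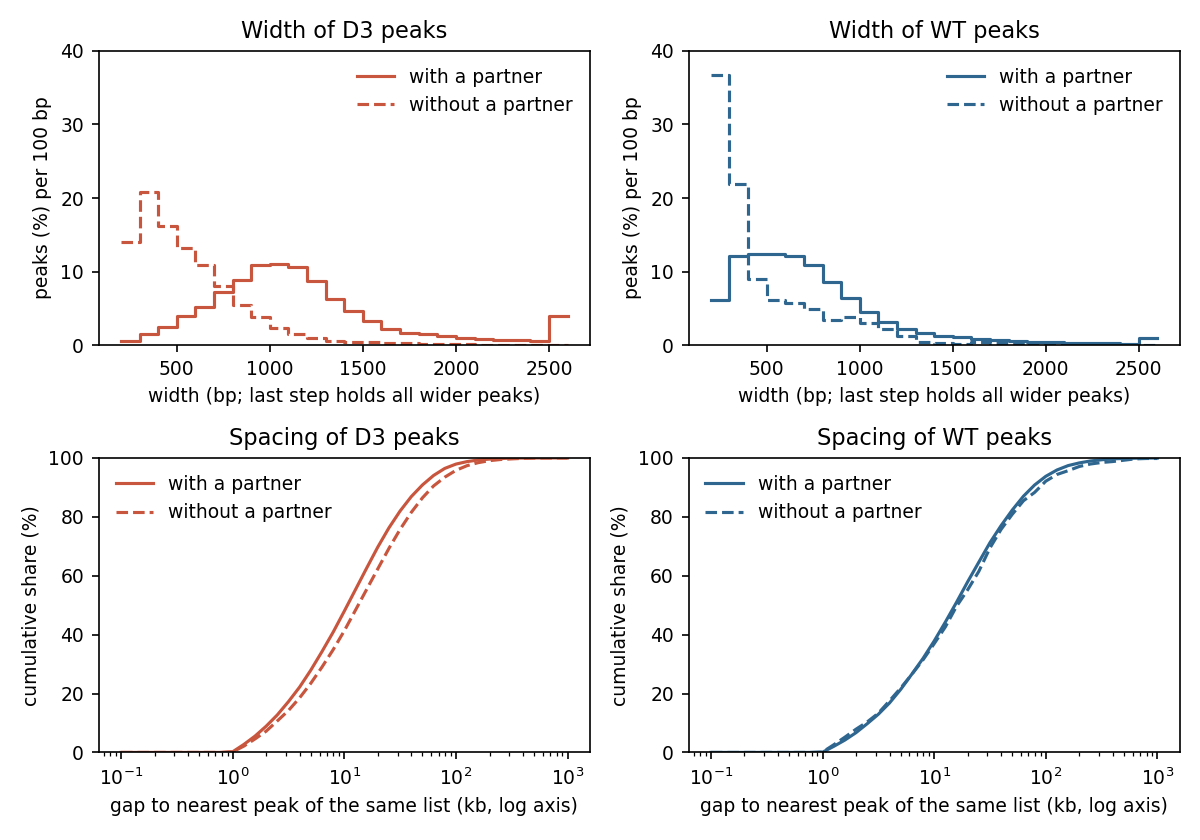
Upper row, width (bp) against the share of peaks in each 100 bp step, for D3 (left) and WT (right), with the last step holding all wider peaks. Lower row, cumulative share of peaks by gap to the nearest peak of the same list (kb, log axis). Solid lines are peaks with and dashed lines peaks without a partner. The dashed width curves lie at lower values (medians 493 against 1083 bp in D3 and 344 against 655 bp in WT), while the spacing curves lie close together.

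By chromosome, the share of WT peaks missing from D3 was highest on chromosomes 8, 17, 10 and 16, although most of the missing peaks lay on the other 18. Chromosome 8 had the highest share without a D3 peak, 9.73% (196 of 2014, interval 8.47 to 11.1%). It was followed by chromosome 17 with 8.93% (189 of 2116), chromosome 10 with 7.12%, chromosome 16 with 6.13% and chromosome 21 with 4.94%. Chromosome 11 had the lowest share, 2.402% (49 of 2040), and chromosomes 6, 4, 5 and 7 followed with 2.62, 2.73, 2.78 and 2.81%. Chromosomes 8, 10, 16 and 17 together gave 607 of 7444 (8.15%), and the other 18 chromosomes 940 of 30291 (3.10%). On those 4 chromosomes the intervals lay above the share of 4.10% for all chromosomes. At equal list length this held for chromosomes 8 (20.1%), 17 (17.6%) and 10 (15.8%), beside 13.1% of all WT peaks. It no longer held for chromosome 16 (14.8%, interval 12.9 to 16.7%), which then stood below chromosome 13 (15.2%).

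The D3 peaks missing from WT followed another order. Chromosome 13 had the highest share, 43.5% (596 of 1370), then chromosome 4 with 43.0%, chromosome 18 with 40.2%, chromosome 5 with 39.1% and chromosome 14 with 39.0%. Chromosome 17 had the lowest, 27.8% (728 of 2615), followed by chromosome 19 with 28.7%, chromosome 15 with 32.4%, chromosome 22 with 32.5% and chromosome 8 with 33.2%. The share was higher where D3 peaks were sparse. In the 184 bins of 5 Mb with the fewest D3 peaks (21 to 81 a bin) 44.2% had no WT partner, in the middle 183 bins 37.7%, and in the 184 densest (110 to 274 a bin) 32.4%. The share of these D3 peaks in the weakest 2 deciles was close in these classes, from 21.2% in the sparsest to 19.5% in the densest. Median D3 width rose along them from 772 to 850 and 956 bp.

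In bins of 5 Mb, high WT shares lay on 4 chromosomes, mostly in bins near each other. A bin was said to stand out if it held 20 peaks or more and even the lower bound of its interval exceeded the share over all chromosomes by a factor of 1.5. In WT this held for 20 of 527 bins (3.80%), and in D3 for 4 of 551 bins (0.726%). The highest WT share was 26.8% (11 of 41 peaks) at 135 to 140 Mb on chromosome 8. On chromosome 17 the bin at 80 to 85 Mb had 23.1% (12 of 52), and on chromosome 10 the bin at 125 to 130 Mb 21.2% (24 of 113). The strongest unpartnered peaks of these 3 bins stood at percentiles 16.4, 31.9 and 16.4 of the WT list. In the median bin 2.90% of the WT peaks had no D3 partner, and 95 bins had none. The 4 D3 bins lay elsewhere, at 60 to 65 Mb on chromosome 4 (78.1%, 25 of 32), 80 to 85 Mb on chromosome 1 (75%), 25 to 30 Mb on chromosome 5 (74.5%) and 85 to 90 Mb on chromosome 13 (72.7%). Their strongest unpartnered peaks, such as chr13:87116200-87116962 at percentile 61.1, were of middle rank. At equal list length 2 of these 4 bins, those on chromosomes 1 and 5, were among the 8 D3 bins that stood out. The lowest D3 shares were 13.5% (7 of 52) at 145 to 150 Mb and 19.05% (32 of 168) at 140 to 145 Mb on chromosome 8, with 16% at 120 to 125 Mb on chromosome 1.

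**Figure D3:**
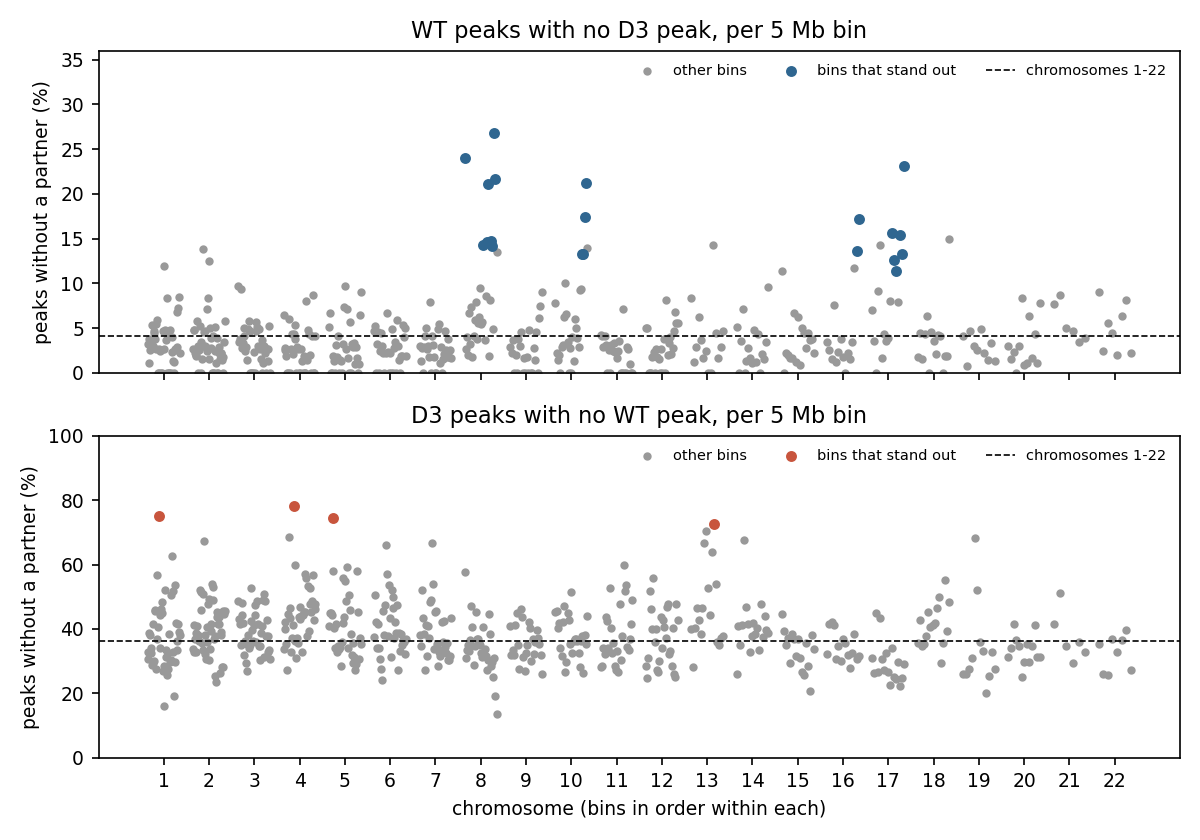
Share of peaks without a partner in each 5 Mb bin along chromosomes 1 to 22 (percent, y axis), for D3 peaks and for WT peaks in separate panels, with bins that stand out marked. The marked WT bins lie on chromosomes 8, 10, 16 and 17, all but 1 of them near others, and reach 26.8%, and the 4 marked D3 bins lie on chromosomes 1, 4, 5 and 13 and reach 78.1%.

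The 20 WT bins fell into 5 stretches, which include the bins between them and were drawn after the values were seen, so that the counts in them are a description. The stretches are a single bin at 0 to 5 Mb and the region from 85 to 145 Mb on chromosome 8, 110 to 130 Mb on chromosome 10, 80 to 90 Mb on chromosome 16 and 50 to 85 Mb on chromosome 17. Of 2641 WT peaks in them 383 had no D3 partner (14.5%), against 1164 of 35094 (3.32%) elsewhere. They held 6.999% of the WT peaks and 24.8% of those missing from D3. Nearly all of the missing peaks were weak, with 361 of the 383 in the weakest 2 deciles of the WT list. Of all weak WT peaks in the stretches 48.7% had no D3 partner, against 14.8% of weak WT peaks elsewhere. Among the stronger WT peaks the shares were 1.16% (22 of 1900) and 0.566% (160 of 28288).

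In the same stretches the lists differed in density as well. Over the 5 stretches together WT peaks were closer to each other (10.8 kb against 15.8 kb) and wider (790 bp against 638 bp). Of them 28.1% belonged to the weakest 2 deciles, against 19.4% elsewhere. D3 had 1.20 peaks per WT peak there and 1.51 elsewhere, and 30.0% of its peaks lacked a WT partner, against 36.8%. The small stretch at 0 to 5 Mb on chromosome 8 (25 WT peaks) went the other way. Its WT peaks were 38.1 kb apart and 530 bp wide. It had 1.8 D3 peaks per WT peak, and 57.8% of its D3 peaks lacked a WT partner. At equal list length the D3 count in the stretches was 0.817 per WT peak, against 1.01 elsewhere. Then 24.0% of the WT peaks in the stretches and 12.3% of those elsewhere had no D3 partner. At that length 6 WT bins stood out, and all 6 were among the 20. The part that read depth, background or the amount of DNA from each segment has in these shares was not tested.

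Of the genes examined below, 5 lie in these stretches. Over all peaks of the stretches 14.5% of the WT peaks lacked a D3 partner and 30.0% of the D3 peaks lacked a WT partner. With so few peaks at each gene, the counts that follow do not set these genes apart. MYC, the oncogene driven by WNT signalling in these cells, kept a D3 partner at 4 of 4 WT peaks. TCF7L2, the transcription factor through which beta-catenin acts, kept all 4 of its WT peaks, and it had 6 D3 peaks without WT among 10. SOX9, a crypt transcription factor, kept 2 of 2, and AXIN2 kept 1 of 1. FGFR2, a growth factor receptor, kept its strong peak chr10:123367764-123368865 (percentile 99.7) and lacked a D3 partner at chr10:123356846-123357936 (percentile 7.36). The last of these, 9.85 kb from the nearest D3 peak, is the end of a run of 4 missing WT peaks.

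One-to-one pairs, in which each peak has the other as its sole partner, numbered 35070. The D3 peak was the wider one in 31464 pairs (89.7%), and the WT peak lay wholly inside the D3 peak in 72.4%. Median widths in the pairs were 1076 bp in D3 and 653 bp in WT, and the median ratio of D3 to WT width was 1.59 (quartiles 1.24 and 2.10). The ratio was highest among weak WT peaks, 1.72 to 1.78 in the 3 weakest deciles of the pairs, and fell to 1.40 in the strongest. The midpoints of a pair lay 96 bp apart in the median. Ranks among the pairs went together across sites (Spearman's rho 0.81 over 35070 pairs, a description only, since the lists share the cell line and each list its library). In 48.1% of the pairs the ranks lay within 10 percentile points, and in 349 pairs they differed by more than 50.

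The pairs of largest difference had been called in both lists with very different standing. At chr8:130951687-130952248 the D3 peak stood at percentile 0.724 of the paired D3 peaks (fold 2.75), and its WT partner chr8:130951634-130952135 at percentile 76.4 of the paired WT peaks (fold 7.53). At chr12:107958653-107959239 the D3 percentile was 7.15 and that of the WT partner 79.6. At chr18:56448298-56449615 the percentiles were 20.7 in D3 and 91.9 in WT. In the other direction, chr2:85412956-85413908 stood at percentile 85.5 in D3 (fold 15.03) and its WT partner of 254 bp at percentile 3.22. The D3 peak chr4:174673620-174674598 stood at percentile 80.3 and its partner at 2.53. The D3 peak chr14:51240025-51241137 reached percentile 92.0 while its WT partner was at 20.9. Of the 5 largest differences toward WT, 2 lay on chromosome 8, which held 1768 of all 35070 pairs. These 5 pairs were picked as extremes, so their places are a description only.

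**Figure D4:**
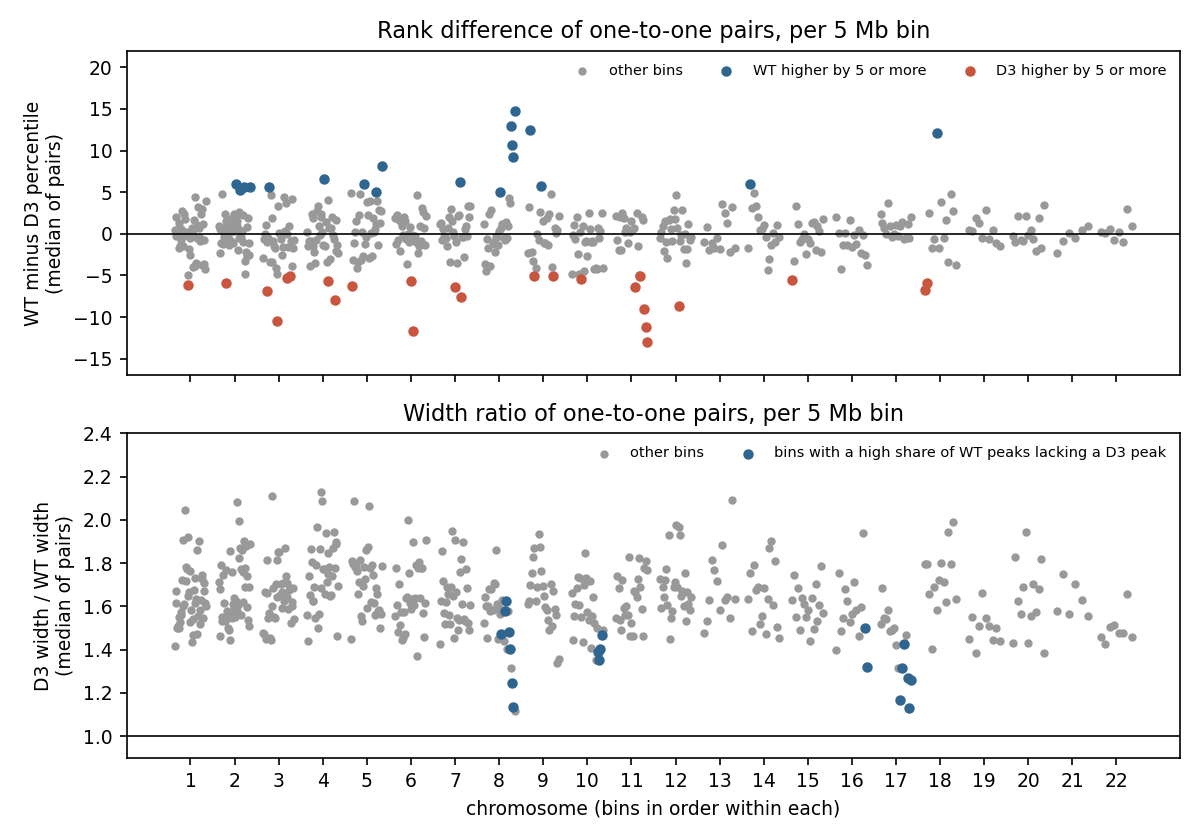
Medians of the one-to-one pairs in each 5 Mb bin along chromosomes 1 to 22, as the rank difference (upper panel, WT minus D3 percentile points) and as the ratio of D3 to WT width (lower panel). In the upper panel colours mark differences of 5 points or more, and the highest bin (14.7) lies on chromosome 8. In the lower panel blue marks the bins with a high share of WT peaks lacking a D3 peak, most of which lie below the median of 1.62 of all bins.

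Rank differences between the lists varied along the chromosomes. Of 524 bins with 20 pairs or more, the median pair ranked 5 points or more higher in WT in 19 (3.63%) and higher in D3 in 25 (4.77%). Of these 44 bins 9 adjoined a bin of the same direction and formed the 3 stretches described here, and the other 35 were single bins. On chromosome 7, a bin higher in WT at 105 to 110 Mb (6.23 points) lay next to a bin higher in D3 at 110 to 115 Mb (−7.58 points). The bin of greatest WT excess was 145 to 150 Mb on chromosome 8, where the median difference was 14.7 points and the WT peak ranked higher in 88.1% of 42 pairs. Over 130 to 150 Mb of chromosome 8, again a stretch chosen from its values, WT ranked higher in 84.3% of 281 pairs, with a median of 11.2 points. The width ratio there was 1.17, and 17.1% of the WT peaks (60 of 350) had no D3 partner. The reverse was seen at 120 to 135 Mb on chromosome 11, where the median difference was −10.7 points and the width ratio 1.79. There 1 of 210 WT peaks (0.476%) lacked a D3 partner, and 41.4% of 348 D3 peaks lacked a WT partner. At 0 to 10 Mb on chromosome 18 the median difference was −5.91 points and 3 of 102 WT peaks lacked a D3 partner. The stretch at 80 to 90 Mb on chromosome 16 ranked lower in WT (−3.28 points) although 16.04% of its WT peaks were missing from D3, so missing peaks and rank did not go together everywhere.

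At 93 genes of cancer, WNT signalling, colon identity and chromatin structure, taken with 10 kb on either side, most loci had peaks in both lists. Both lists had a peak at 82 genes, D3 alone at 6, WT alone at 0 and neither at 5 (NRAS, MCL1, SOX17, HBB and CHEK2). D3 had 264 peaks at these genes, of which 93 (35.2%) had no WT partner, close to the 36.4% of all D3 peaks. WT had 180, of which 4 (2.22%, interval 0.609 to 5.59%) had no D3 partner, against 4.10% of all WT peaks. D3 had more peaks at 48 genes, WT at 3, and the numbers were equal at 37. Over all chromosomes compared, D3 had 1.49 peaks per WT peak, so more D3 peaks at a gene do not set these genes apart. The counts of genes with peaks in D3 alone or WT alone also come from lists of unequal length. Presence at equal list length is given below.

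Among the 6 genes with peaks in D3 alone were genes of DNA repair, growth control and transcription. MSH6, a mismatch repair gene, had chr2:48010419-48011132 at percentile 6.18. VHL, a tumour suppressor that marks hypoxia-inducible factors for degradation, had a peak of 264 bp at percentile 19.6. EP300 had a peak of 523 bp at percentile 12.01, and CCNE1, a cyclin of the entry into S phase, one of 429 bp at percentile 13.6. FOS, an immediate early transcription factor, had a pair of weak peaks, at percentiles 8.45 and 8.43. At equal list length none of MSH6, VHL, EP300, CCNE1 and FOS had a peak in either list, and PTCH1, BRCA1 and SMARCB1 had a peak in WT alone.

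The 4 WT peaks without D3 at these genes were weak ones beside stronger shared peaks. TP73, a gene of the p53 family, had chr1:3566320-3566643 at percentile 3.10, 28.0 kb from a D3 peak. AKT1, a kinase of growth factor signalling, had chr14:105239772-105240147 at percentile 17.4, 2.196 kb from a D3 peak. HNF4A, a transcription factor of the gut epithelium, had chr20:43035760-43036036 at percentile 5.85, which missed a D3 peak by 0.015 kb. The FGFR2 peak is given above. At FBXW7, IGF1R and BCL2, the genes with most WT peaks, each WT peak kept its partner. FBXW7, a subunit of the ubiquitin ligase that degrades MYC, had 6 WT peaks at percentiles from 9.08 to 62.6, all partnered, and 3 more D3 peaks at percentiles 15.3, 28.0 and 40.1. IGF1R, a growth factor receptor, had 6 WT and 8 D3 peaks, and BCL2, an inhibitor of apoptosis, 5 and 5, all shared. NIPBL, the loader of cohesin, had 4 WT and 8 D3 peaks. The CTCF gene had 2 WT and 4 D3 peaks.

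At MYC the lists differed in form and not in presence. WT had chr8:128748186-128748755 over the gene start (570 bp, percentile 27.7) and chr8:128749955-128750330 inside the gene (376 bp, percentile 56.9). D3 had a single peak, chr8:128748264-128750363, of 2100 bp at percentile 40.6 that spanned both. The 2 upstream peaks were shared, with percentiles of 61.8 and 83.9 in WT and 76.8 and 79.2 in D3. All percentiles at these genes are from lists of unequal length, so they are no measure of a shift between D3 and WT. At TCF7L2 the strongest peak was strong in both lists, chr10:114867929-114869570 at percentile 97.0 in D3 and its partner at 96.4 in WT. Of the 6 TCF7L2 peaks of D3 alone, 5 stood between percentiles 0.889 and 4.03, and chr10:114899252-114899935 at 31.9.

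D3 peaks covered more of the gene starts than WT peaks. A D3 peak covered the start of 25 of the 93 genes and a WT peak 13, of which 12 in both lists. The D3 list also covered more bases over all chromosomes compared, 54.1 Mb against 28.0 Mb in WT. The counts of starts therefore do not set gene starts apart from other sequence, and such a difference was not tested. The starts were written from general knowledge of hg19 and not from an annotation of that build, so a start within a few bases of a peak edge may fall on either side. Of the 13 starts reached in D3 alone, 10 lay under a D3 peak that did have a WT partner which did not extend to the start. Choosing starts in this way favours pairs with a wide D3 peak, so the widths are given as a description, beside the ratio of 1.59 over all pairs. JUN had a D3 peak of 2466 bp and a WT partner of 802 bp. NFE2L2, a regulator of the antioxidant response, had 2636 bp and 600 bp. CDKN1A, the cell cycle inhibitor p21, had 2569 bp and 822 bp. PIK3CA, a lipid kinase gene, had 1906 bp and 285 bp. At NOTCH1, a receptor of cell fate choice, the WT peak was the wider one, with 1272 bp against 420 bp. The remaining 3 starts were under D3 peaks without a partner. These were NF2 (chr22:29999387-29999986, 600 bp, percentile 43.6, 12.8 kb from a WT peak), CCND1, a G1 cyclin (643 bp, percentile 11.4), and EP300 (chr22:41488420-41488942). VEGFA, a growth factor of blood vessels, was the single start reached in WT alone. Its WT peak chr6:43736655-43737991 and the D3 partner chr6:43736625-43737840 overlapped, and the D3 peak ended before the start.

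Starts reached in both lists had strong and weak peaks. Widths were close at some of them, such as CDK6, a kinase of the G1 phase (1487 bp in D3 and 1329 bp in WT), and CEBPA, a transcription factor of differentiation (1054 and 1062 bp). ATM, a kinase of the DNA damage response, stood at percentile 98.7 in D3 and 97.8 in WT. The CTCF start, whose promoter is printed above, had chr16:67596084-67597559 in D3 (1476 bp, percentile 83.0) and chr16:67596243-67597403 in WT (1161 bp, percentile 93.5). AXIN1, a scaffold of the beta-catenin destruction complex, had 337 bp at percentile 67.9 in D3 and 271 bp at percentile 12.2 in WT. These percentiles too are each from the full own list and are not comparable between D3 and WT. Promoter sequences were matched for 20 of the 26 genes with a start reached. CCCTC was found in 9 of 9 promoters reached in D3 alone and in 7 of 11 reached in both, beside 66.6% of all promoters. The promoters were not matched for G and C content. CCACTAG and the longer core were found in none of these 20 promoters.

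**Figure D5:**
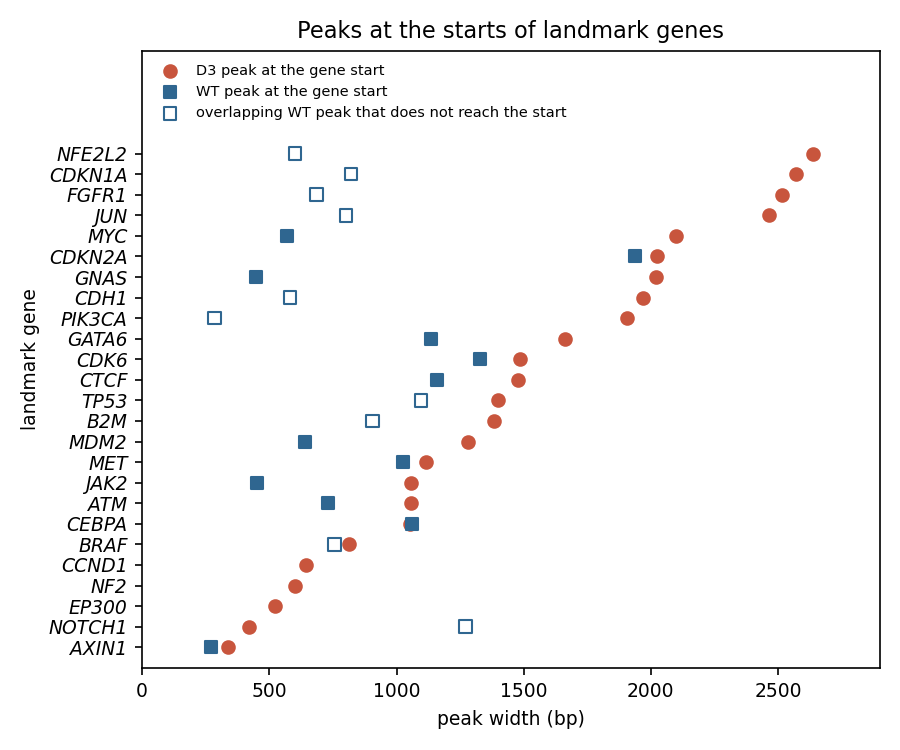
Peak width (bp, x axis) at the 25 genes whose start a D3 peak covers (y axis), with circles for D3 peaks, filled squares for WT peaks at the start and open squares for WT partners that do not reach it. Widths differ much at NFE2L2 (2636 and 600 bp) and little at CEBPA (1054 and 1062 bp), and NOTCH1 has the wider peak in WT. Open squares were chosen by which peak reaches the start, so their distance from the circles is no measure of all pairs.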

How the data were processed

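For every CTCF library the authors deposited a broadPeak list of 9 columns. Build hg19 and the tools MACS2 2.2.7.1, bedtools 2.29.2, Picard 2.23.1 and CASAVA 1.8.2 are listed, per the submitters' processing notes, without roles. Which aligner, peak settings and control were used is not given in the sources used here. Fold enrichment, a ratio, and the −log10 p and −log10 q of each peak are the values the authors deposited, and they were used only to rank, filter or describe peaks within their own list. The score in the deposited lists repeats the −log10 q (multiplied by 10, decimals dropped, in over 99.9% of peaks) and was not used.

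Overlap, gaps, runs, deciles and 5 Mb bins (by peak midpoint) were computed in Python 3.11.15 with numpy 2.4.6, pandas 2.3.3 and scipy 1.17.1, and figures drawn with matplotlib 3.10.9. The code was tested on simulated lists. Intervals are exact (Clopper-Pearson, 95%) and cover counting error only, and the depth is unknown. Named sites were the 10 strongest unpartnered peaks of each list with no peak of the other list within 1 kb, the 5 strongest and 3 widest peaks, the 3 with most partners, the 5 pairs of largest rank difference in each direction, the 5 most extreme chromosomes and bins, and genes that differed between lists or held most WT peaks; the text gives the leading ones. The windows of the 93 genes come from general knowledge of hg19. In the RefSeq gene table (GRCh38.p14) all 93 were found on the same chromosome, in the same order on 22 of 22 chromosomes, and 79 had a length within 10% of the window. Promoters were found for 73. The values of 1 gene are not reported here. Members, gene lists and comparisons were chosen with earlier results of these data known; the stretches and the widths at gene starts were chosen after their values were seen.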

Additional observations from a re-analysis of the deposited data

How the results depend on the processing

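No paired analysis was possible because each population has 1 CTCF library and no replicate could be left out. Of 68 values under alternative settings, 20 stayed within the interval of the reported value or, for counts, within 1.5 times it, and 48 moved. A reversal could be recorded only for the pair width ratio, where there was none. For other values a change of order between D3 and WT was not recorded as such. The bins that stood out did change order, from 20 WT and 4 D3 bins to 6 WT and 8 D3 bins at equal list length. With the D3 list shortened to 37735 peaks, the partnered share was 86.9% of WT and 85.5% of D3 peaks, leaving 4942 and 5459 without a partner at median percentiles of 11.97 and 14.2. Median widths with and without a partner were then 1116 and 670 bp in D3 and 681 and 375.5 bp in WT, the pair ratio was 1.60, D3 spacing was 15583 bp with and 21504 bp without a partner, and 8 D3 and 6 WT bins stood out. The larger number of WT peaks without a partner follows from the shorter D3 list.

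Keeping peaks whose −log10 q reached 5 (37983 D3 and 20193 WT peaks) gave partners to 99.2% of WT and 52.2% of D3 peaks. Then 159 WT peaks had none, and the median percentiles were 11.3 in WT and 26.3 in D3. Widths were 1221 and 850 bp in D3 and 787 and 474 bp in WT, the pair ratio 1.52, spacing 13761 and 19269 bp in D3 and 25232 and 29045 bp in WT. There 1 D3 bin and 1 WT bin stood out, pairs ranked higher in WT in 41 bins, and 17 genes had peaks in 1 list only. The cause was not tested. When the partner had to cover 50% of a peak, 94.0% of WT and 43.8% of D3 peaks had one, 31522 D3 peaks had none, the percentiles were 7.53 and 31.6, and 0 D3 bins stood out. A partner within 1 kb gave 96.1% of WT peaks. Without the 5 stretches, an alternative chosen after seeing the data, the share was 96.7%.

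Ranked by fold, the percentiles were 7.55 in WT and 21.5 in D3, and pairs ranked higher in D3 in 54 bins. Bins of 10 Mb gave 13 high WT bins, 4 with pairs higher in WT and 6 higher in D3. With 50 kb around genes, 1 gene had peaks in 1 list only. The unknown depth limits every count: a peak missing from a list may be bound below its threshold. Bins with few peaks have wide intervals, and a result from 1 clone and 1 library on each side holds for those libraries.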

Other observations

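Chromosome X lay outside the comparison. There the D3 list had 1827 peaks and the WT list 910, or 2.01 D3 peaks per WT peak, above the range of 1.24 to 1.70 on chromosomes 1 to 22. Of the D3 peaks on X, 941 (51.5%, interval 49.2 to 53.8%) had no WT partner. Of the WT peaks on X, 19 (2.09%, interval 1.26 to 3.24%) had no D3 partner. Median widths on X were 668 bp in D3 and 441 bp in WT.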
